A study of Mus musculus with 6 samples.

Results

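The genes described here are 27 enzymes and regulators of sterol and fatty acid synthesis, out of the 23337 genes of a count table. They were chosen by symbol for their place in these pathways, and all 27 were in the table, Msmo1 under its older symbol Sc4mol. RNA was sequenced from a mouse leukemia described as primary neonatal, which belongs to a study of MLL-rearranged leukemia. The 3 ccl5 libraries came from leukemia treated with CCL5, a chemokine of inflamed tissue, and the 3 control libraries from leukemia under control conditions. Ccl5 replicate 1 is labelled a tertiary transplant, ccl5 replicates 2 and 3 and control replicate 3 a primary transplant, and control replicates 1 and 2 carry no transplant label. Mouse strain, age in days, the introduced oncogene, CCL5 dose and exposure time are not given in the sources used here. Nor do the labels tie each library to an animal or culture of its own, so p-values measure only the spread between these libraries, which may be technical. In a bulk sample, fewer cells of a type and less RNA per cell cannot be told apart.

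Cells build cholesterol from acetyl-CoA through mevalonate, isoprenoid diphosphates, squalene and lanosterol. The transcription factors SREBP2 (Srebf2) and SREBP1 (Srebf1) are held in the endoplasmic reticulum by INSIG proteins while sterol is plentiful. When sterol runs low they reach the nucleus and turn on enzymes of both pathways and Insig1 itself. Fatty acid synthesis draws on the same acetyl-CoA, and dividing leukemia cells use both products for new membranes.

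Gene counts summed to between 13421100 and 18445095 per library, so 3 counts corresponded to 0.16 to 0.273 CPM (counts scaled to library size, CPM, with TMM normalization). The 6 libraries formed 3 closely alike pairs, which were ccl5 replicates 1 and 3, control replicates 1 and 2, and ccl5 replicate 2 with control replicate 3. Pearson's r across 12174 tested genes, which are not independent replicates, was 0.995 to 0.997 within these pairs and 0.841 to 0.902 between them. The pairs still differed by more than counting noise, with a mean chi-square per gene of 3.61 to 7.74 where counting alone gives 1. Ccl5 replicates 1 and 3 had 0 Y-linked counts, and the other 4 libraries had 5103 to 7777. Summed levels of 8 monocyte and macrophage markers reached 11456 and 12646 CPM in ccl5 replicates 1 and 3, and 1701 CPM in ccl5 replicate 2, beside 1785 to 2048 CPM in controls. Summed levels of 10 cell division genes were lowest in those libraries, at 213 and 143 CPM, beside 2004 CPM in ccl5 replicate 2 and 772, 831 and 1928 CPM in control replicates 1 to 3. Summed levels of 7 neutrophil markers were 11184 CPM in ccl5 replicate 2 and 10730 CPM in control replicate 3, beside 610 and 620 CPM in the other controls and 173 and 133 CPM in ccl5 replicates 1 and 3. All 8 monocyte and macrophage markers, and the 7 neutrophil markers found, exceeded 3 counts in at least 1 library, while 4 of 6 B-cell markers, Pax5, Ebf1 and Ms4a1 among them, were at or below that in every library. Of 6 fat cell markers, Adipoq had 0 counts in all 6 libraries and Plin1 and Cidec at most 5. Fabp4, which macrophages also express, measured 655 and 817 CPM in ccl5 replicates 1 and 3 and 5.17 to 40.3 CPM in the others, Lep 104 and 126 counts in ccl5 replicate 2 and control replicate 3 and at most 3 elsewhere, and Cfd at most 29 counts. The groups are used as labelled. Whether the labels of these libraries are right was not tested, and each ccl5 over control value below holds only as far as they are.

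No member passed the test between ccl5 and control libraries. Of the 27 members, all tested, 0 passed an adjusted p of 0.05 in edgeR's quasi-likelihood test, against 0% of all 12174 genes, and the smallest adjusted p among members was 0.369 (Cyp51). At an unadjusted p under 0.05 there were 0 members in either direction, where 4.67% of all genes were lower and 8.99% higher with CCL5. Fitted fold changes lay below 0 on the log2 scale for 21 members and above 0 for 6, with a median of -0.21 against -0.01 over all tested genes, of which 51% were lower. By library totals without TMM, 25 members were lower with a median of -0.32, and all genes shifted too, to a median of -0.17 with 65.1% lower. In 3 members (Idi1, Fdft1 and Ebp) each ccl5 library lay below each control library, which was also so for 7.49% of all tested genes. No member lay wholly above, against 8.27% of all genes.

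**Figure D1:**
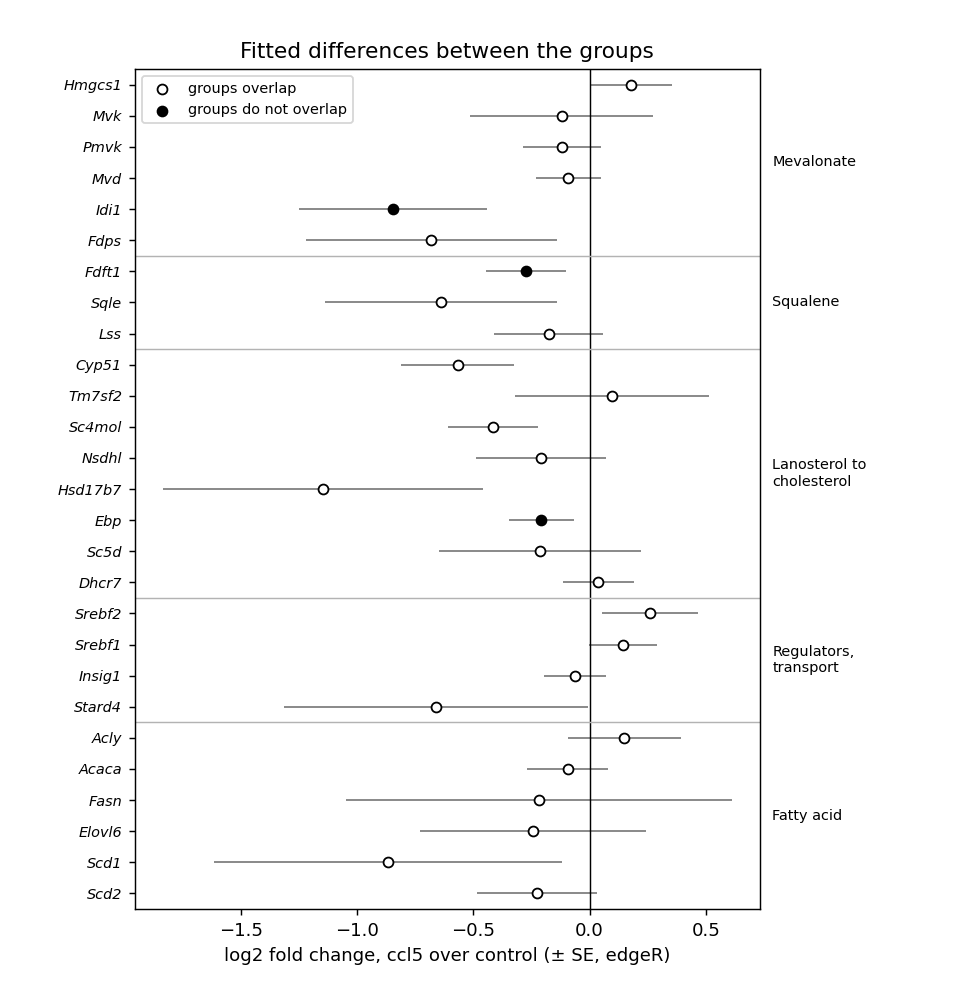
Fitted log2 fold changes, ccl5 over control, with standard errors for the 27 genes in 5 role groups. Filled points mark Idi1, Fdft1 and Ebp, whose groups did not overlap, and the largest negative value is that of Hsd17b7 at -1.14.

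What varied most was the spread between libraries, which differed widely from gene to gene. The highest library was 1.12 times the lowest for Insig1 and 9.08 times for Fasn, with a median of 1.80 over the 27 members. It was under 1.5 times for 9 members and over 2.5 times for another 9. The share of all tested genes in these classes was not computed, so the counts cannot be read as particular to the members. They also depend on TMM. By library totals Pmvk, Mvd, Insig1 and Acaca, all under 1.5 by TMM, had ratios of 1.60, 1.56, 1.61 and 1.89. In 13 members the 2 lowest libraries were ccl5 replicates 1 and 3, which are also the libraries high in macrophage markers and low in division genes. The part of cell type and of cell division in these values was not tested. With library totals in place of TMM this number was 21, since TMM factors were 0.846 and 0.819 in those libraries and above 1 in the others. The share of all tested genes with ccl5 replicates 1 and 3 lowest was not computed on either scale. Neither number can therefore be read as particular to the members.

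**Figure D2:**
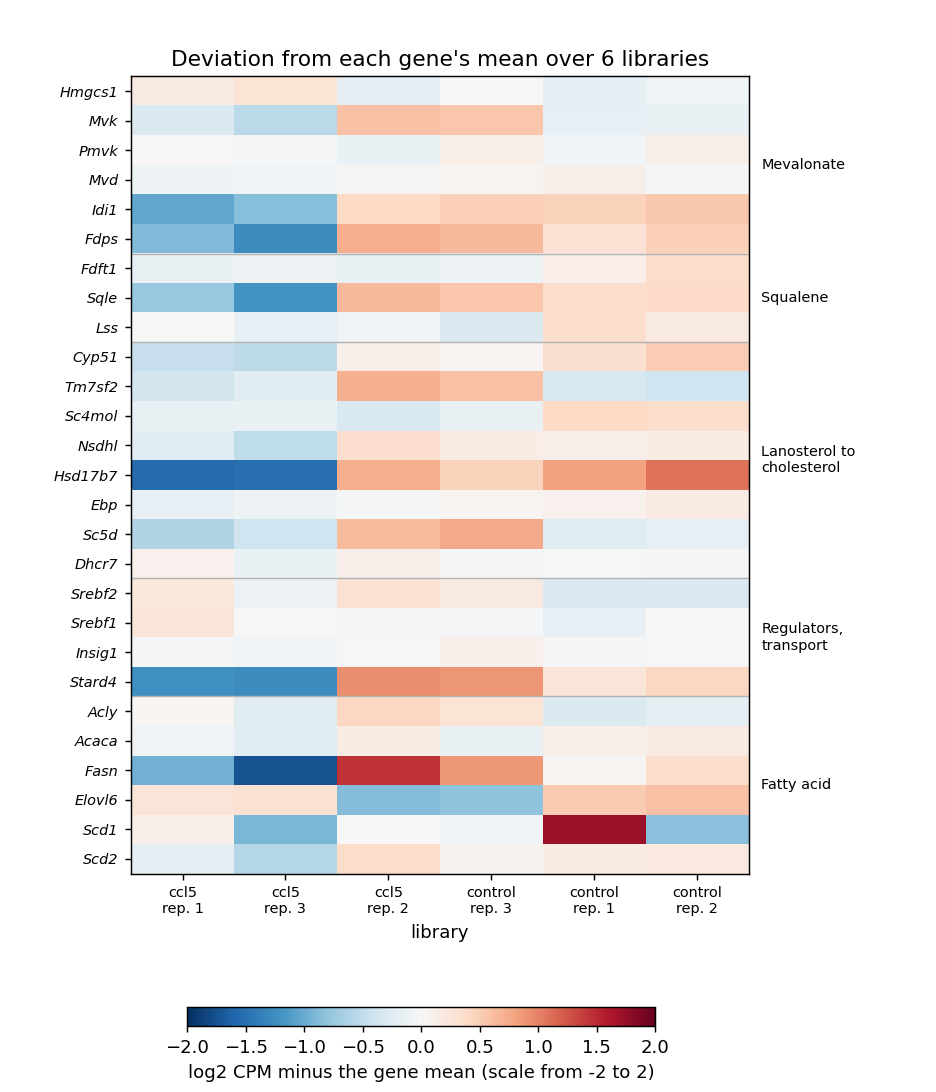
Log2 CPM of each gene in each library minus that gene's mean over the 6 libraries, with alike libraries side by side. Ccl5 replicates 1 and 3 are the lowest for Idi1, Fdps, Sqle, Hsd17b7, Stard4 and Fasn. On this TMM scale Pmvk, Mvd, Dhcr7, Srebf1 and Insig1 vary little.

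Promoters of 5 members are shown, chosen after their values were seen. By TMM Fasn had the widest and Insig1 the narrowest range. Idi1 and Hsd17b7 were lower in ccl5 replicates 1 and 3, and Hmgcs1 was higher there by TMM, though not by library totals. Each is the 250 bases before the RefSeq start (GRCm38.p6, the same assembly as mm10), in the direction of transcription. Capitals mark CCAAT, the box bound by NF-Y, read on either strand as CCAAT or ATTGG, and in Hmgcs1 also TCACNCCAC, a form of the sterol regulatory element bound by SREBP. They lie at chr13:119690101-119690350 (Hmgcs1, + strand), chr13:8885356-8885605 (Idi1, + strand), chr1:169969206-169969455 (Hsd17b7, - strand), chr11:120824548-120824797 (Fasn, - strand) and chr5:28071162-28071411 (Insig1, + strand). For Hmgcs1 the count table's gene model starts downstream of this RefSeq start, at 119690462.
Hmgcs1: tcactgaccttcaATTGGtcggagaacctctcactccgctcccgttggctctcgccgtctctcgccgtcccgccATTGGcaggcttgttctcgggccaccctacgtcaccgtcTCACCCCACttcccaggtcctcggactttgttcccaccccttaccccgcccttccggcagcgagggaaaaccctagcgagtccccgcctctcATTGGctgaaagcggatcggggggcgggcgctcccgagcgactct
Idi1: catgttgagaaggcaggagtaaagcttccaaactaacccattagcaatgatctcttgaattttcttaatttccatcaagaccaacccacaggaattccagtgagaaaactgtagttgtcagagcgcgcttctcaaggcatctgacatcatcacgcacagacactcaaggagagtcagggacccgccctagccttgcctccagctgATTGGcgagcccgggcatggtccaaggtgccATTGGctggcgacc
Hsd17b7: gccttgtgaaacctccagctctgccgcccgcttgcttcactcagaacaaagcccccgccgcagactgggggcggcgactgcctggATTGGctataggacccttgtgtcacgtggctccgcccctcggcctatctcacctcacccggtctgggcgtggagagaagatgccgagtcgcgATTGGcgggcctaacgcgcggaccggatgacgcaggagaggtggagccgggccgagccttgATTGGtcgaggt
Fasn: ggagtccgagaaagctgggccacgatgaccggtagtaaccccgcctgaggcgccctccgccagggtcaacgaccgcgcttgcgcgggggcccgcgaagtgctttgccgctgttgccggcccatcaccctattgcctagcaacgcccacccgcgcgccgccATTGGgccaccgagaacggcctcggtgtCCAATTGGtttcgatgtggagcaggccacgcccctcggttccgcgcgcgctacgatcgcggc
Insig1: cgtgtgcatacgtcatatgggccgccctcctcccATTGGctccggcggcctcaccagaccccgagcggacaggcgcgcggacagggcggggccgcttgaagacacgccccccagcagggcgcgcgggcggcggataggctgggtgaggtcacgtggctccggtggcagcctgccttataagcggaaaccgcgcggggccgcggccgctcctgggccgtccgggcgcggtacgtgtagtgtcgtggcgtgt

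Promoter windows from 250 bases before to 50 after the start were found for 21 members, and not for Fdps, Fdft1, Sqle, Stard4, Scd1 and Scd2. CCAAT occurred on either strand in 19 of these 21 (90.5%), against 43.5% of the 8727 tested genes with a window and 41.1% of all 27025 genes in the table. The printed stretches hold 3 copies in Hmgcs1, Hsd17b7 and Fasn, 2 in Idi1 and 1 in Insig1, and in Fasn a pair on opposite strands overlaps. GGGCGG, the Sp1 box, occurred in 17 of 21 members and in 68.4% of tested genes, and the E-box CACGTG in 4 of 21 and 12% of tested genes. TCACNCCAC occurred only in Hmgcs1 among the 21, and in 1.42% of tested genes. Other forms of the sterol regulatory element were not searched for. Genes with several starts have several windows, and a match in any was counted. Genes with and without a narrow range both carried CCAAT, as Insig1 and Fasn show, and these matches are a description of letters, not of binding.

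By TMM the mevalonate steps were split between steady and variable enzymes. Idi1, which isomerizes isopentenyl diphosphate (chromosome 13, 8885606 to 8892396, mm10), stood at 15.9, 42.8 and 17.9 CPM in the order of ccl5 replicates 1, 2 and 3, and at 45.0, 47.4 and 45.3 CPM in the order of control replicates 1, 2 and 3. Values of other genes are given in that order. All controls lay within a narrow band, and ccl5 replicate 2 lay just under it. The log2 fold change was -0.84 (SE 0.40, adjusted p = 0.396 in edgeR), or a fold of 0.557. By library totals the groups overlapped, with 50.7 CPM in ccl5 replicate 2 and 45.8 CPM in control replicate 1. Fdps, the farnesyl diphosphate synthase that supplies sterols and protein prenylation (chromosome 3, 89093588 to 89101967), measured 45.0, 138 and 34.6 CPM against 102, 116 and 131 CPM. Its ccl5 libraries lay on both sides of the controls, and the log2 fold change was -0.68 (SE 0.54, adjusted p = 0.582 in edgeR).

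Hmgcs1, the HMG-CoA synthase that commits acetyl units to the pathway (chromosome 13, 119690462 to 119708077), was laid out the other way, at 60.5, 46.5 and 64.3 CPM against 47.2, 50.4 and 53.7 CPM. Ccl5 replicates 1 and 3 were the highest 2 libraries and ccl5 replicate 2 the lowest. The log2 fold change was 0.18 (SE 0.17, adjusted p = 0.65 in edgeR) and turned to -0.03 with library totals, where ccl5 replicates 1 and 3 measured 51.2 and 52.7 CPM and control replicate 3 measured 63.1 CPM. The kinase Pmvk and the decarboxylase Mvd were nearly level by TMM, at 15.6 to 18.5 CPM and 31.7 to 36.8 CPM over the 6 libraries. By library totals they ranged more widely, from 13.6 to 21.7 CPM and from 26.4 to 41.3 CPM. Mvk, the mevalonate kinase, ranged from 7.01 to 15.3 CPM, with ccl5 replicate 2 (15.3) and control replicate 3 (15.0) above the other 4. Neutrophil markers and division genes were also highest in ccl5 replicate 2 and control replicate 3. The part of neutrophils and of cell division in the Mvk values, and in the split of Tm7sf2, Sc5d and Elovl6 between the same libraries, was not tested.

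All 3 enzymes that make and cyclize squalene had a fitted fold change below 0, none past the test. Fdft1, the squalene synthase (chromosome 14, 63145150 to 63177793), measured 29.3, 29.4 and 29.9 with CCL5 and 35.3, 41.5 and 30.1 CPM in controls. The groups did not overlap, but control replicate 3 was nearly level with the highest ccl5 library, and the log2 fold change was -0.27 (SE 0.17, adjusted p = 0.493 in edgeR). Sqle, the squalene epoxidase (chromosome 15, 59315092 to 59331193), measured 6.91, 18.2 and 5.10 CPM against 14.8, 15.2 and 17.1 CPM. As for Fdps, ccl5 replicate 2 was the highest of the 6 libraries and ccl5 replicates 1 and 3 the lowest. Lss, the lanosterol synthase, measured 13.2, 12.6 and 11.8 CPM against 16.8, 14.9 and 10.8 CPM, with control replicate 3 the lowest library.

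Of the 8 enzymes from lanosterol to cholesterol, 6 had a fitted fold change below 0 and 2 (Tm7sf2 at 0.10 and Dhcr7 at 0.04 on the log2 scale) above it, and by library totals these also lay below, at -0.02 and -0.12. Hsd17b7, the sterol ketone reductase (chromosome 1, 169949537 to 169969205), had the lowest fold change of all members at -1.14 on the log2 scale (SE 0.69, adjusted p = 0.475 in edgeR). It measured 2.49, 12.03 and 2.55 with CCL5 and 12.6, 15.5 and 9.85 CPM in controls. Ccl5 replicates 1 and 3 lay far below every other library, while ccl5 replicate 2 lay among the controls. Cyp51, the lanosterol demethylase (chromosome 5, 4080674 to 4104697), measured 17.2, 25.5 and 16.6 CPM against 29.5, 33.7 and 24.6 CPM, which gave -0.57 on the log2 scale (SE 0.24, adjusted p = 0.369 in edgeR). Its groups overlapped only between ccl5 replicate 2 and control replicate 3.

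Sc4mol, the sterol methyl oxidase Msmo1 (chromosome 8, 64718145 to 64733578), measured 38.5, 34.4 and 38.7 CPM against 56.0, 54.3 and 38.5 CPM. Here control replicates 1 and 2 stood above the other 4 libraries, and the log2 fold change was -0.41 (SE 0.19, adjusted p = 0.387 in edgeR). Ebp, the sterol isomerase (chromosome X, 8185331 to 8193512), measured 27.2, 29.4 and 28.2 CPM against 32.1, 34.2 and 31.6 CPM, so its groups did not overlap at a fold of 0.866. By library totals they did, with 34.9 CPM in ccl5 replicate 2 and 32.7 CPM in control replicate 1. Fdft1 stayed apart on that scale, and Sc4mol, at 40.8 CPM or less with CCL5 and 45.2 CPM or more in controls, became so.

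Of the other 4 enzymes of this stretch, Tm7sf2 and Sc5d split with an alike pair of libraries. The reductase Tm7sf2 measured 27.6 CPM in ccl5 replicate 2 and 25.4 CPM in control replicate 3, and 12.8 to 14.7 CPM in the other 4 libraries. Sc5d, the sterol desaturase, was likewise highest in those libraries, at 73.7 and 81.0 CPM against 31.6 to 42.8 CPM. Nsdhl, which removes the sterol's extra methyl groups with Msmo1, ranged from 7.46 to 13.4 CPM, with ccl5 replicate 3 lowest and ccl5 replicate 2 highest. Dhcr7, which makes cholesterol from its direct precursor, was nearly level by TMM at 21.7 to 25.5 CPM. By library totals it ranged from 17.7 to 30.2 CPM.

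**Figure D3:**
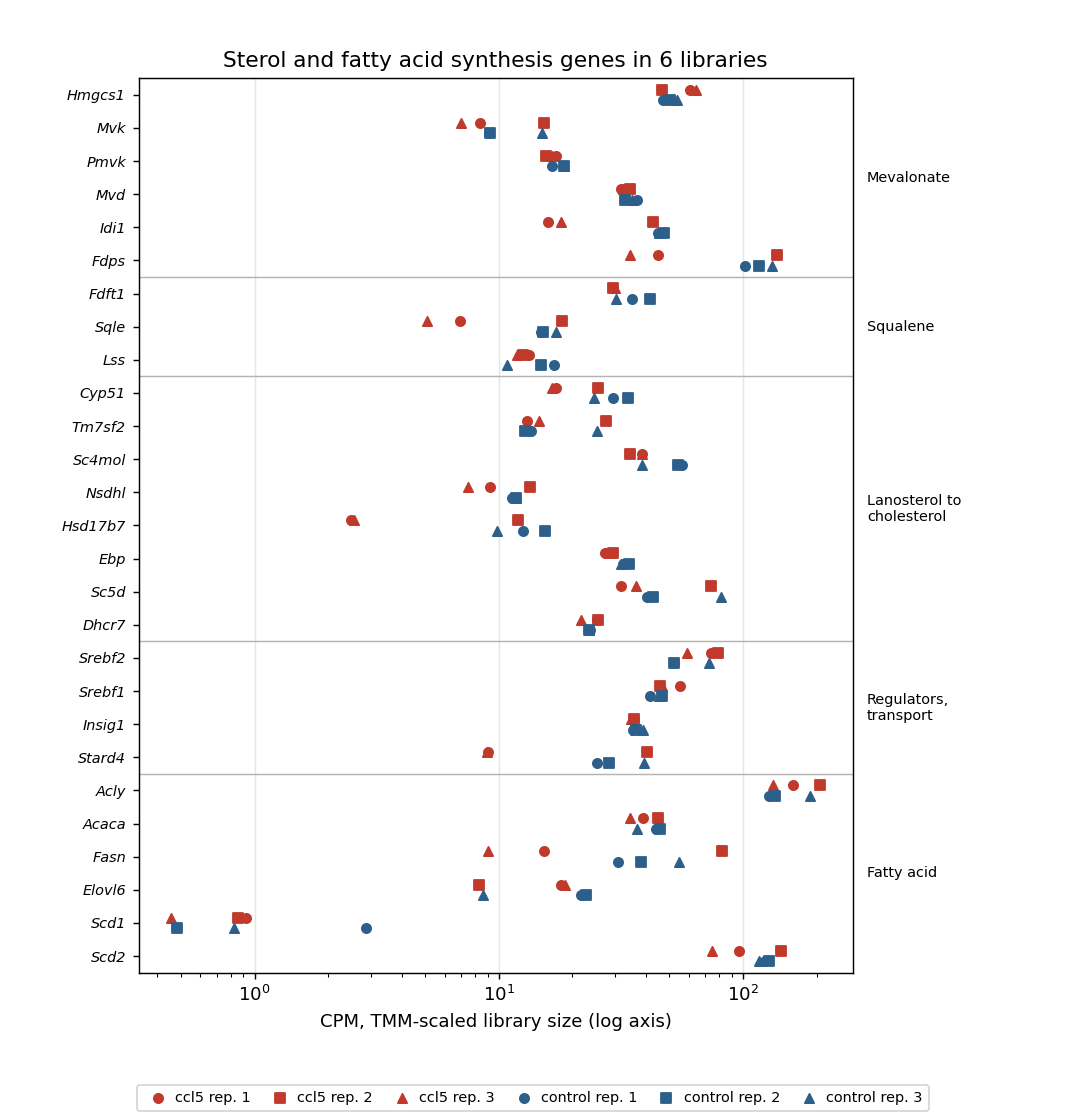
CPM of the 27 genes on a log axis, 1 point per library, with ccl5 libraries in red and control libraries in blue. For Fdps, Sqle, Hsd17b7, Stard4 and Fasn ccl5 replicates 1 and 3 lie apart to the left, and ccl5 replicate 2 lies with or above the controls.

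The SREBP genes and Insig1 varied less between libraries than the median member. Srebf2, which encodes SREBP2 (chromosome 15, 82147269 to 82204960), measured 73.7, 78.8 and 59.1 with CCL5 and 52.2, 52.0 and 72.4 CPM in controls. The log2 fold change was 0.26 (SE 0.20, adjusted p = 0.578 in edgeR), the highest of the 27, and control replicate 3 lay among the ccl5 libraries. Srebf1 (chromosome 11, 60199089 to 60220604) measured 55.1, 45.6 and 46.7 CPM against 41.5, 46.4 and 45.4 CPM. Its log2 fold change of 0.14 (SE 0.15) turned to -0.04 with library totals. Insig1, the sterol-dependent anchor of the SREBPs and itself a target of them, stayed between 34.8 and 39.1 CPM, the narrowest range of all members. With library totals Insig1 ranged from 28.5 to 45.9 CPM, a ratio of 1.61, so this flatness depended on TMM. Stard4, a carrier of cholesterol between membranes, measured 9.05, 40.6 and 8.92 CPM against 25.2, 28.3 and 39.4 CPM. It thus had the layout of Fdps and Sqle, with a log2 fold change of -0.66 (SE 0.65, adjusted p = 0.656 in edgeR).

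In fatty acid synthesis 5 of 6 members had a fold change below 0, and no member's groups were apart. Acly, which makes cytosolic acetyl-CoA from citrate, measured 161, 207 and 133 CPM against 128, 136 and 188 CPM (a log2 fold change of 0.15 with SE 0.245). Acaca, the acetyl-CoA carboxylase of the committed step, ranged from 34.5 to 45.7 CPM by TMM and from 28.3 to 53.4 CPM by library totals. Fasn, the fatty acid synthase (chromosome 11, 120805958 to 120824547), falls outside the rule for values per library and is given because its range was the widest of the 27. It measured 15.4, 81.8 and 9.01 with CCL5 and 30.8, 38.2 and 54.7 CPM in controls, so that both the highest and the lowest library were ccl5 libraries. Its log2 fold change of -0.22 had an SE of 0.83 (adjusted p = 0.917 in edgeR).

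Elovl6, which lengthens palmitate to stearate, had another order, with 8.31 CPM in ccl5 replicate 2 and 8.64 CPM in control replicate 3 below 18.02 to 22.8 CPM in the other 4 libraries. These are the libraries in which Fasn was highest. Of the stearoyl-CoA desaturases, which make monounsaturated fatty acids, Scd2 measured 96.6, 143 and 74.6 CPM against 123, 127 and 117 CPM. Scd1 was close to absent, at 13, 14 and 5 counts with CCL5 and 45, 9 and 15 counts in controls. Its log2 fold change of -0.87 (SE 0.75) rested on control replicate 1 and turned to 0.20 without it.

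Per kilobase of exonic length, averaged over the 6 libraries, Fdps was the most abundant member at 64.7 RPKM (counts per kilobase, scaled to library size). In ccl5 replicates 1 and 3, however, Acly stood above it, at 36.3 and 29.995 against 30.8 and 23.7 RPKM. Acly averaged 35.8, Sc4mol 23.8, Sc5d 22.7 and Scd2 20.8 RPKM, and each of these ranges over libraries overlapped the next. At the low end Elovl6 measured 2.75, Hsd17b7 2.004 and Scd1 0.22 RPKM. Scd2 was above Scd1 in every library on this scale, at no less than 13.7 RPKM against no more than 0.59 RPKM. Reads that fit both desaturase genes would be counted at their primary alignment only.

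Genes around the pathway gave no call either, and moved in both directions. Of 39 genes listed for SREBP processing, precursor supply, isoprenoid branches, desaturation, elongation and acyl-CoA synthesis, 34 were tested and 0 passed edgeR's test, with 15 lower and 19 higher and a median log2 fold change of 0.06. In 2 of the 34 the ccl5 libraries were all lower and in 4 all higher, beside 7.49% and 8.27% of all genes. The 4 higher were Acss2, Slc25a1, Fads1 and Elovl1. Other listed fatty acid genes had fitted log2 fold changes on both sides of 0, from -1.42 (Elovl7, SE 0.97) to 2.21 (Fads3, SE 0.92). Groups overlapped in both, and Fads3 had only 54, 5 and 30 counts with CCL5 and 6, 14 and 6 counts in controls. Acss2, which makes acetyl-CoA from acetate (chromosome 2, 155518043 to 155562743), measured 18.8, 10.3 and 18.8 CPM against 5.71, 5.65 and 9.52 CPM, with a fitted log2 difference of 1.20 and an SE of 0.37 (adjusted p = 0.365 in edgeR). Slc25a1, the mitochondrial citrate exporter that feeds Acly, measured 77.5, 67.4 and 77.4 CPM against 48.0, 47.3 and 58.1 CPM (a log2 difference of 0.53 with SE 0.15). Fads1, a desaturase of polyunsaturated fatty acids, measured 47.3, 18.3 and 39.3 CPM against 15.9, 13.6 and 17.1 CPM, and Elovl1, an elongase of very long chains, 59.0, 50.9 and 56.0 CPM against 42.0, 50.6 and 45.9 CPM.

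The pair lower in all ccl5 libraries were Acat1 and Acacb. Acat1, the mitochondrial acetoacetyl-CoA thiolase, measured 49.0, 107 and 51.9 CPM against 111, 112 and 118 CPM, a layout close to that of Idi1. Acacb, the carboxylase isoform tied to control of fatty acid oxidation, measured 3.70, 5.13 and 3.19 CPM against 7.48, 7.41 and 6.27 CPM. In each of these 6 genes ccl5 replicate 2 was the ccl5 library nearest to the controls. By library totals Acss2, Fads1 and Acacb stayed apart, while Slc25a1, Elovl1 and Acat1 overlapped, as in Slc25a1 at 63.4 CPM in ccl5 replicate 3 and 68.3 CPM in control replicate 3. Summed levels of 11 genes of cholesterol efflux, storage and oxysterol handling were 3228 and 3398 CPM in ccl5 replicates 1 and 3. The sum was 1065 CPM in ccl5 replicate 2 and 1033 to 1053 CPM in controls. It was thus highest where Fdps, Sqle, Hsd17b7 and Stard4 were lowest, with Npc2 alone at 1666 and 1910 CPM there. Nr1h2, Lpcat3 and Ch25h did not share this order. Nr1h2 measured 118 and 109 CPM in ccl5 replicates 1 and 3, and 141 CPM in both ccl5 replicate 2 and control replicate 3. The members named beside the efflux sum were chosen after their values were seen. Hmgcs1 was instead highest in ccl5 replicates 1 and 3 by TMM. Those libraries were also the ones high in macrophage markers and without Y-linked reads. Any link between the efflux sum and the members was not tested.

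**Figure D4:**
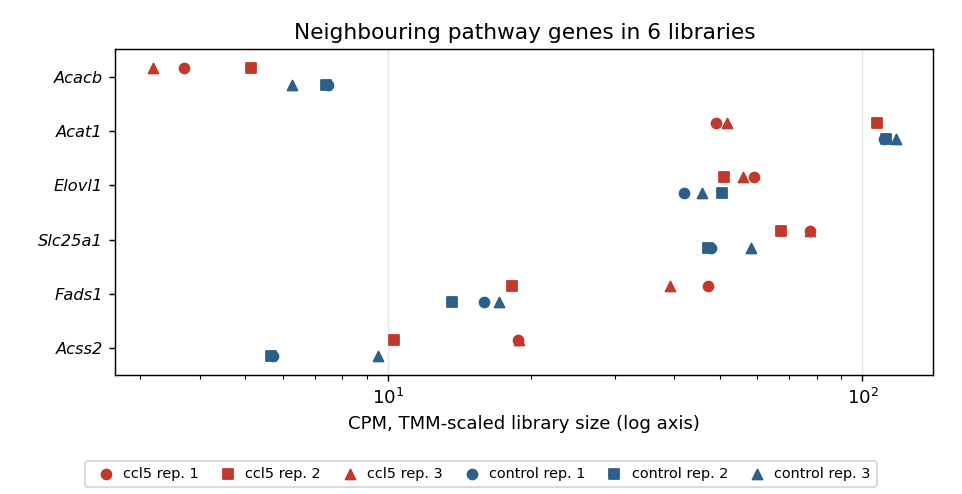
CPM on a log axis in each library of 6 neighbouring pathway genes whose groups did not overlap. Acss2, Fads1 and Slc25a1 are higher in each ccl5 library (red) than in each control library (blue), with ccl5 replicate 2 nearest to the controls.

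In edgeR's test, calls of members depended on ccl5 replicate 2. Without it, edgeR called 7 of 27 members, all lower: Idi1, Fdps, Sqle, Cyp51, Hsd17b7, Stard4 and Fasn, with log2 fold changes from -2.32 (Hsd17b7) to -0.79 (Cyp51) and adjusted p from 0.00376 (Idi1) to 0.0322 (Cyp51). That is 25.9% of members, where the same fit called 11.9% of all genes lower and 14.3% higher, 26.2% in all. The ccl5 libraries left in it are replicates 1 and 3, which differ from the rest in Y-linked reads, macrophage markers and division genes, and CCL5 cannot be told apart from these here. Leaving out any other library gave 0 called members. Limma-voom with sample quality weights called 13 members lower and 2 (Hmgcs1 and Srebf2) higher, in a fit that called 33.5% of all genes lower and 33% higher. DESeq2 called 0 members and 1.64% of all genes.

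Values of ccl5 replicate 2 and control replicate 3, the alike pair that spans the groups, differed by a median of 0.12 (log2, size without sign) over the 27 members, against 0.17 within ccl5 replicates 1 and 3 and 0.08 within control replicates 1 and 2. Among all other pairs of libraries this median was 0.26 to 0.64. With the 4 libraries that hold Y-linked reads only, ccl5 replicate 2 against the controls, 13 members were lower. The median over all 27 was 0.04 on the log2 scale, and 50.7% of all genes were lower. Among libraries labelled primary transplant, with control replicate 3 as the only control, 22 members were lower with a median of -0.16. In that fit 51% of all genes were lower, with a median of -0.01.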

How the data were processed

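Per the labels' protocols, polyadenylated RNA was sequenced from 1 end. The deposited table holds raw read counts per gene, made by the authors with featureCounts 1.5.1 from primary alignments and the UCSC mm10 annotation, per the file headers. Counting used no strand setting, so genes overlapping on opposite strands were not separated. Trimmomatic, Bowtie and TopHat are named without version or role per the submitters' processing notes. Coordinates are those of the file, counted from 1.

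Groups came from the treatment label and control replicate numbers from the titles, while ccl5 replicates were numbered in accession order. Genes were filtered with filterByExpr (minimum count 10), which left 12174 of 18580 with a count, and scaled by TMM. They were tested with edgeR 4.0.16 (quasi-likelihood, R 4.3.3), two-sided, Benjamini-Hochberg adjusted over all tested genes at 0.05. Each SE was taken from the log2 fold change and the F statistic, as size over root F. RPKM divides CPM by the deposited exonic length, a column in bases. The test was tried on simulated counts.

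The members and lists were chosen with earlier results of these data known. All members are named. Values per library are given for members without overlap between groups and for up to 3 per role with the smallest p, and for up to 6 neighbouring genes without overlap. Alternatives were DESeq2 1.42.0 (size factors, Wald test), limma 3.58.1 (voom with quality weights), 2 other filters, fewer libraries, a threshold of 0.1 and, added after seeing the data, library totals without TMM. Promoters are from RefSeq (GRCm38.p6). Protein identity between Scd1 and Scd2 was not analysed here. Values of some other pathway genes and markers are not reported here.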

Additional observations from a re-analysis of the deposited data

How the results depend on the processing

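No paired analysis was possible because the labels give the ccl5 libraries no replicate numbers. Directions and calls of the members were the same with DESeq2 size factors, DESeq2's Wald test, unfiltered genes and a higher minimum (above 1 CPM in 3 or more libraries, which drops Scd1), and with a threshold of 0.1 the count stayed at 0. Of all tested genes 0 passed in the main test, 199 with DESeq2's Wald test, 8097 with limma-voom and 0 to 3299 when each library was left out in turn. Limma-voom called 15 members and 26 neighbouring pathway genes, and leaving out libraries gave 0 to 7 and 0 to 10. In those 6 fits 18 to 22 members were lower, with a median log2 fold change from -0.32 to -0.07, beside 46.6% to 53.1% of all genes. With Y-linked libraries only, 13 were lower (median 0.035). The cause of these shifts was not tested.

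Signs turned for uncalled log2 fold changes as follows. With library totals without TMM they were -0.031 for Hmgcs1, -0.024 for Tm7sf2, -0.12 for Dhcr7 and -0.040 for Srebf1. With primary transplant libraries only they were 0.16 for Lss, -0.27 for Tm7sf2, -0.0094 for Dhcr7, -0.085 for Srebf2, -0.15 for Acly, 0.10 for Acaca and 0.62 for Elovl6. With Y-linked libraries only they were -0.12 for Hmgcs1, 0.45 for Mvk, 0.24 for Fdps, 0.21 for Sqle, 0.21 for Nsdhl, 0.43 for Sc5d, 0.39 for Stard4, 0.094 for Acaca, 0.99 for Fasn and 0.22 for Scd2. Over the fits that left out 1 library the range was -0.53 to 0.17 for Mvk, -0.69 to 0.20 for Sc5d, -1.75 to 0.24 for Fasn, -0.32 to 0.49 for Tm7sf2, -0.034 to 0.35 for Acly, -0.56 to 0.056 for Elovl6, -0.20 to 0.0026 for Acaca and -1.29 to 0.20 for Scd1. Fits with 1 library in a group assume that it varies like the other group. Depth limits Scd1 alone among the members, since all others had at least 28 counts in every library.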

Other observations

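Some other genes of lipid synthesis, chosen after their values were seen, also split along the alike pairs of libraries. Lbr, the lamin B receptor, which carries the same sterol reductase activity as Tm7sf2, stood at 49.8, 276 and 39.0 CPM in the 3 ccl5 libraries, in replicate order, and at 173, 182 and 273 CPM in the 3 controls. In control replicates 1 and 2 it was intermediate, where Tm7sf2 was low. The elongase Elovl7 measured 16.5, 3.48 and 16.4 CPM against 44.1, 48.5 and 4.35 CPM, and Hsd17b12, which reduces the growing acyl chain, 94.0, 61.7 and 97.9 CPM against 157, 167 and 57.8 CPM. Of 6 detected chain-lengthening genes, Elovl5, Elovl6, Elovl7 and Hsd17b12 had their 2 lowest values in ccl5 replicate 2 and control replicate 3, and by library totals Elovl5 no longer did. Elovl1 did not, and Tecr was highest there, at 126 and 117 CPM against 57.8 to 101 CPM.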
